A study of Mus musculus with 8 samples.

Results

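A set of 9 transcription factor genes that direct the making of skeletal muscle was followed through cultures exposed to 3 related cytokines. They were chosen by name (Pax7, Six4, Myf5, Myod1, Myog, Myf6, Mef2a, Mef2c and Mef2d), and each name was matched to 1 Ensembl mouse gene, giving 9 of the 53647 genes counted. All 9 passed the filter on low counts that left 15603 genes for testing. The cells were primary myotubes, multinucleated fibres formed in culture by fusion of wild-type myoblasts from the limb muscles of pups aged 2 to 3 days. All cultures, controls included, differentiated in medium with 5% horse serum and were harvested at 72 h of differentiation. The cytokines were interleukin 6 (IL6), leukaemia inhibitory factor (LIF) and oncostatin M (OSM), which share the receptor subunit gp130, each given for 48 h at 250 ng/ml. The control myotubes received none of them as far as the labels say, and each of the 4 groups has 2 libraries. The labels do not say whether the 2 libraries of a group are separate animals or dishes, so the p-values measure only the spread between these libraries, which may be technical.

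Pax7 marks satellite cells and undifferentiated myoblasts, and Six4 is a homeobox factor that acts upstream of the myogenic genes. Myf5, Myod1, Myog (myogenin) and Myf6 (MRF4) are the myogenic regulatory factors, basic helix-loop-helix proteins that pair with E proteins and bind the E-box, a short element with the letters CANNTG. Myf5 and Myod1 commit cells to the muscle lineage, Myog drives terminal differentiation, and Myf6 is mainly a factor of late differentiation and of mature fibres. Mef2a, Mef2c and Mef2d encode MADS-box proteins that bind an A/T-rich element and act together with the myogenic factors. Myog is a textbook example of this circuit, because its own promoter carries both an E-box and an A/T-rich MEF2 element.

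The promoter windows of a pair of genes that fell and of 1 gene that rose are shown. Members of this family can regulate one another through such elements, and a link to the changes was not tested. Each window runs from 250 bases before to 20 bases after the RefSeq transcript start on the GRCm38.p6 assembly, 5′ to 3′ on the gene's strand. Capitals mark E-boxes (runs of 6) and the MEF2 element with its first and last base left free (runs of 10). The windows are chr1:134289754-134290023 on the plus strand for Myog, chr7:67372839-67373108 on the minus strand for Mef2a and chr4:139832949-139833218 on the minus strand for Pax7.
Myog: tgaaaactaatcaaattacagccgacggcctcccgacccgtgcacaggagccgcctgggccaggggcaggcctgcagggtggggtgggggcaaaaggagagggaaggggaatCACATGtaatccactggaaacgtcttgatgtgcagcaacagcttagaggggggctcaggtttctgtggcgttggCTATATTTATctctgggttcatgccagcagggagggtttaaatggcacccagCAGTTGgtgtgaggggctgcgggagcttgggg
Mef2a: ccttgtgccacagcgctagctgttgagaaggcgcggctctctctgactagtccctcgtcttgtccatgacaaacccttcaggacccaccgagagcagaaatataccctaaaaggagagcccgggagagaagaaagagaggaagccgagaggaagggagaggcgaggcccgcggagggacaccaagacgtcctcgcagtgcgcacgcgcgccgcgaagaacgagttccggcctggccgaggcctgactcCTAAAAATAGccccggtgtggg
Pax7: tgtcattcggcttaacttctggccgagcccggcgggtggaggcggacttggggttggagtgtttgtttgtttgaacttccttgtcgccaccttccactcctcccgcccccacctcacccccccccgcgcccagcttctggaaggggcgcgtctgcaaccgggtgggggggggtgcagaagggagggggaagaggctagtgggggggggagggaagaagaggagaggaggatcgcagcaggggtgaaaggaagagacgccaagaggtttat

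The Myog window holds E-boxes at 138 and 12 bases before the start and a MEF2 element, CTATATTTAT, at 64 bases before it. The Mef2a window holds no E-box and has CTAAAAATAG, a match to the full MEF2 consensus, from 2 bases before the start. Neither motif occurs in the Pax7 window. Both motifs were searched on both strands. Among 32851 promoter windows of the same length in the table, 68.9% held an E-box, 3.02% the full MEF2 consensus and 8.73% its freer form. The freer form was used because the Myog element misses the full consensus at its last base, and it shares no bases with the E-boxes shown. Of the 9 genes, 7 had a promoter in the table, with 10 windows in all, and Myod1 and Myf6 had none. Windows of Myf5, Mef2d and Six4 held neither motif, and 2 of the 3 Mef2c windows held at least 1 E-box. The first Mef2c window also held the freer MEF2 form, at 146 bases before the start. The letters TTCNNNGAA, the element bound by STAT factors, occurred in 1 of the 10 windows, the first of Mef2c, against 7.58% of all windows. A match is a description of the letters, and binding was not measured here.

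Libraries held 29482077 to 30025471 counts in genes, and 21358 to 21831 genes had at least 1 count. Replicates of a group correlated at 0.992 to 0.995 on log2 CPM (reads of a gene scaled to the library total by the TMM method), and libraries of different groups at 0.980 to 0.995. Every replicate pair differed by more than sampling noise, with a chi-square per gene of 3.04 in the closest pair. The labelled cell type was checked by its markers: all 9 myotube genes listed, among them Myh3, Ttn and Acta1, were detected in each library, at a summed 20901 to 24890 CPM. Markers of other cells were mixed. Of 10 fibroblast markers 6 passed the filter, with 38820 to 61502 counts per library for Col3a1, 2108 to 9004 for Col1a1, 868 to 2689 for Ly6a and 234 to 429 for Pdgfra, while Lum and Tcf21 were at 0. Of 7 macrophage markers Mrc1 (168 to 348 counts) and Cd68 (54 to 125) passed, and Ptprc, Adgre1 and C1qa had at most 3. Among 7 endothelial markers Vwf was highest (109 to 136 counts) and Emcn was at 0, and the Schwann cell marker Sox10 had at most 2. In bulk RNA, fewer cells of a type and less RNA per cell cannot be told apart.

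Scaled to exon length (CPM per kilobase of annotated exon), Myog was the most abundant of the 9 genes in each group. In control it stood at 758 ± 113 CPM per kb (SD, n = 2). Mef2c followed at 67.2 ± 0.811 CPM per kb and Myod1 at 57.3 ± 8.69, and with OSM this order was turned, at 55.1 ± 0.0741 and 59.6 ± 3.10. Mef2d at 34.3 ± 2.95 CPM per kb and Mef2a at 25.6 ± 0.779 came next in control. Pax7 at 7.70 ± 0.0151, Myf6 at 6.31 ± 0.474 and Six4 at 5.74 ± 0.410 CPM per kb formed a lower tier, in which the means of Myf6 and Six4 lay within the sum of their SDs. Myf5 was the least abundant, at 0.748 ± 0.150 CPM per kb. The exon lengths are unions over annotated isoforms and put long-isoform genes such as Mef2c, with 15.7 kb, low on this scale.

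**Figure D1:**
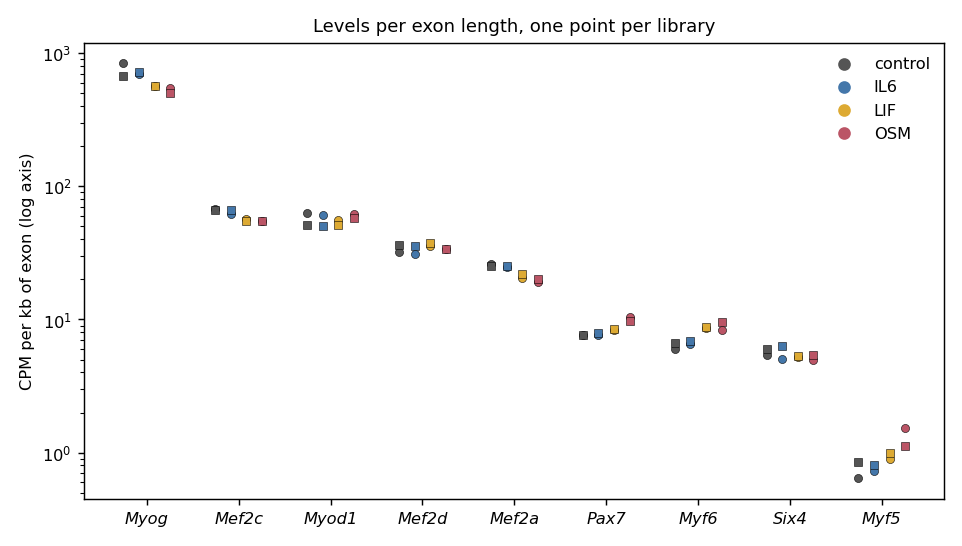
Level of the 9 genes in CPM per kilobase of exon on a log axis, with 1 point per library (circles replicate 1, squares replicate 2) and colours for the 4 groups. Myog lies highest and Myf5 lowest in every group, and the genes keep to the same tiers across cytokines.

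With OSM, 6 of the 9 genes differed from control, 3 higher (Pax7, Myf5 and Myf6) and 3 lower (Myog, Mef2a and Mef2c), while 21.4% of all genes tested were called in this comparison. With LIF, 4 differed, namely Myog, Mef2a and Mef2c, which were lower, and Myf6, which was higher, against 7.66% of all genes. With IL6 the count was 0, against 0% of all genes with edgeR (the DESeq2 Wald test called 16 genes, none of these 9). At an unadjusted p under 0.05 IL6 also gave 0 of the 9, against 5.10% of all genes. Called here means that edgeR's quasi-likelihood test over all genes gave an adjusted p under 0.05. The OSM and LIF comparisons share their 2 control libraries, so their values stand side by side here and are not 2 independent observations. The median log2 change of the 9 genes was −0.02 with OSM, −0.09 with LIF and −0.04 with IL6, beside −0.0029, −0.0079 and 0.00061 in the same order over all genes tested. Because the genes moved in both directions these medians say little of their size. The median absolute log2 change was 0.38 with OSM, 0.27 with LIF and 0.04 with IL6, beside 0.19, 0.13 and 0.09 over all genes.

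**Figure D2:**
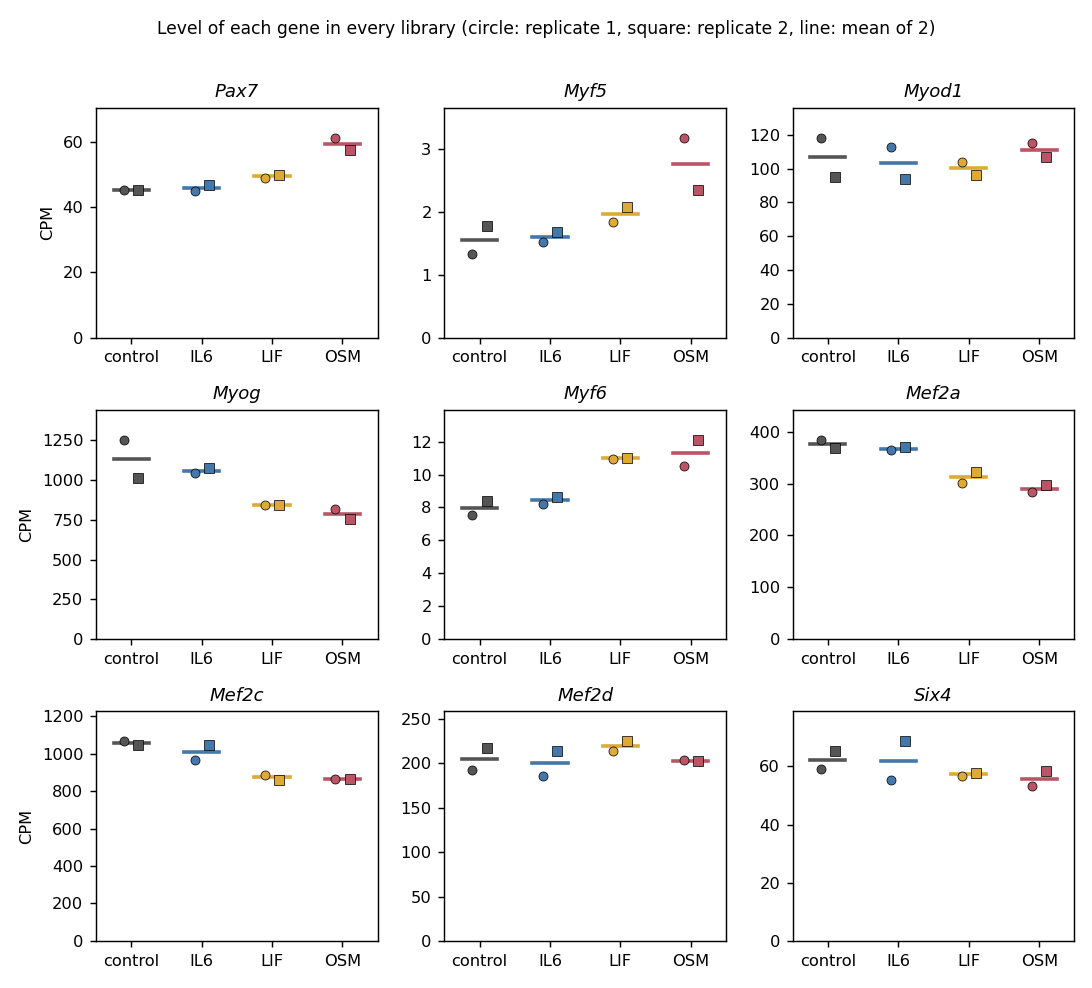
Level of each of the 9 genes in CPM (linear axis from 0) in every library, with circles for replicate 1, squares for replicate 2 and a line at the mean of 2. By group mean, Pax7, Myf5 and Myf6 are highest with OSM and Myog, Mef2a and Mef2c lowest, while for Myod1 and Mef2d the OSM libraries lie between the control libraries, and for Six4 both OSM libraries lie below both control libraries by a margin smaller than the spread of either pair.

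Among the upstream genes, Pax7 rose with OSM and Six4 did not pass the test with any cytokine. Pax7 (ENSMUSG00000028736) had 45.2 and 45.0 CPM in the control libraries, 45.0 and 46.7 with IL6, 49.0 and 49.8 with LIF, and 61.1 and 57.3 with OSM. Both OSM libraries lay above the other 6, and both LIF libraries lay between the OSM libraries and the rest. The OSM change was 0.39 on the log2 scale (SE 0.067, adjusted p 0.000852), a level 31.3% higher than control. The LIF change of 0.13 (SE 0.067) did not pass (adjusted p 0.297), and its 95% interval ran from −0.01 to 0.28. Pax7 was called with OSM under each of the 14 other settings tried, with changes of 0.353 to 0.445.

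Six4 (ENSMUSG00000034460) had 59.1 and 65.4 CPM in control, 55.2 and 68.6 with IL6, 56.8 and 57.7 with LIF, and 53.4 and 58.3 with OSM. The IL6 libraries spanned all the others but the lower OSM library. Its log2 change was −0.16 with OSM (SE 0.095, 95% interval −0.36 to 0.05, adjusted p 0.285) and −0.12 with LIF (SE 0.095, adjusted p 0.544). Both OSM libraries lay below both control libraries, and on the linear scale the OSM interval ran from −22.3% to 3.52%.

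Within the myogenic regulatory factors, Myog fell, Myf6 and Myf5 rose and Myod1 did not pass the test. Myog (ENSMUSG00000026459) had 1253 and 1014 CPM in control, 1044 and 1073 with IL6, 842 in both LIF libraries, and 820 and 752 with OSM. The LIF and OSM libraries all lay below the 4 control and IL6 libraries, and the control libraries were the furthest apart. Myog changed by −0.53 on the log2 scale with OSM (SE 0.086, adjusted p 0.000696) and by −0.43 with LIF (SE 0.086, adjusted p 0.00826), so its level was lower by 30.7% and 25.8%. The call with OSM held under all 14 other settings. The call with LIF was lost without LIF replicate 1 (adjusted p 0.0841) and without LIF replicate 2 (0.0991), each of which leaves 1 LIF library. Without control replicate 1, the higher of the control pair, the changes were −0.367 with OSM and −0.269 with LIF, and both passed.

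Myf6 (ENSMUSG00000035923), the factor of mature fibres, moved opposite to Myog at a much lower level. It had 7.55 and 8.39 CPM in control, 8.24 and 8.63 with IL6, 10.96 and 11.02 with LIF, and 10.5 and 12.1 with OSM. The LIF and OSM libraries lay above all control and IL6 libraries. The log2 change was 0.51 with OSM (SE 0.12, adjusted p 0.00901) and 0.46 with LIF (SE 0.12, adjusted p 0.0332). The OSM call was lost without control replicate 1 (adjusted p 0.0695) and without OSM replicate 2 (0.105), and the LIF call without control replicate 1 (0.170), without LIF replicate 1 (0.181) or 2 (0.214), and with the DESeq2 Wald test (0.0693). Counts ran from 220 to 361 per library, so counting error alone reaches 6.74% in the lowest.

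Myf5 (ENSMUSG00000000435), an early lineage factor, was low, with 39 to 93 counts per library. Its mean CPM lay at percentile 22.5 of the genes tested. Its levels were 1.34 and 1.78 CPM in control, 1.52 and 1.69 with IL6, 1.85 and 2.08 with LIF, and 3.18 and 2.35 with OSM. The OSM pair lay above the other 6 libraries but was also the most spread. It rose with OSM by 0.82 on the log2 scale (SE 0.25, 95% interval 0.29 to 1.36, adjusted p 0.0316). That call was lost without control replicate 1 (adjusted p 0.181), without OSM replicate 1 (0.267) and with the DESeq2 Wald test (0.0906). With LIF its change was 0.33 (SE 0.26, adjusted p 0.539).

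Myod1 (ENSMUSG00000009471), the factor able to turn other cell types into muscle, had 118 and 95.2 CPM in control, 113 and 93.7 with IL6, 104 and 96.2 with LIF, and 115 and 107 with OSM. The control libraries bracket all others but the lowest IL6 library. Its log2 change was 0.06 with OSM (SE 0.11, 95% interval −0.18 to 0.30, adjusted p 0.761), −0.09 (SE 0.11, adjusted p 0.718) for LIF and −0.05 (SE 0.11, adjusted p 0.985) for IL6. Without control replicate 1 the values were 0.221 for OSM and 0.0727 for LIF, and without control replicate 2 they were −0.0811 and −0.233. Per unit length, Myod1 came to 7.57 and 7.54 per 100 of Myog in the control libraries, 8.67 and 7.01 with IL6, 9.93 and 9.18 with LIF, and 11.3 and 11.4 with OSM. The same ratio for Pax7 was 0.919 and 1.13 per 100 of Myog in control, 1.10 and 1.11 with IL6, 1.48 and 1.51 with LIF, and 1.90 and 1.94 with OSM. In both ratios the groups ran in the order OSM, LIF and then control with IL6, with no overlap between OSM, LIF and the rest. Both ratios are divided by Myog, whose fall is given above, so this order is not a separate observation.

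Myog nevertheless supplied most of the transcripts of its family in all libraries. Its share of the summed per-length level of the 4 myogenic regulatory factors was 92.3% and 92.0% in control and 88.4% and 88.1% with OSM. With LIF the share was 89.6% and 90.2%, and with IL6 91.2% and 92.5%. The share fell in the same order as the level of Myog, which enters the share, so this order is not a separate observation. The control and IL6 libraries overlapped.

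Of the MEF2 genes, Mef2a and Mef2c fell with OSM and LIF, and Mef2d did not pass the test. Mef2a (ENSMUSG00000030557) had 384 and 368 CPM in control, 365 and 370 with IL6, 301 and 323 with LIF, and 283 and 296 with OSM. The order was the same as for Myog, with the OSM libraries lowest and the LIF libraries next. Its log2 change was −0.38 with OSM (SE 0.060, adjusted p 0.000531), a level lower by 23.1%, and −0.27 with LIF (SE 0.060, adjusted p 0.0140), lower by 17.1%. Mef2a was called with OSM under all 14 other settings. Its LIF call was lost without control replicate 1 (adjusted p 0.0653) and without LIF replicate 1 (0.226) or 2 (0.0763).

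Mef2c (ENSMUSG00000005583), the family member most tied to muscle differentiation, had 1065 and 1047 CPM in control, 968 and 1047 with IL6, 887 and 859 with LIF, and 865 and 867 with OSM. The OSM pair fell inside the range of the LIF pair, and all 4 lay below the others. The log2 change was −0.29 with OSM (SE 0.061, adjusted p 0.00435) and −0.27 with LIF (SE 0.061, adjusted p 0.0138), falls of nearly the same size. The OSM call was lost without OSM replicate 1 (adjusted p 0.0602) or 2 (0.0535), and the LIF call without LIF replicate 1 (0.105) or 2 (0.208).

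Mef2d (ENSMUSG00000001419), the most widely expressed of the 3, had 193 and 218 CPM in control, 186 and 214 with IL6, 214 and 225 with LIF, and 203 in both OSM libraries. The control pair enclosed the OSM pair. Its log2 change was −0.02 with OSM (SE 0.077, 95% interval −0.18 to 0.15, adjusted p 0.918) and 0.10 with LIF (SE 0.077, adjusted p 0.553). A fall of the size measured for Mef2a with OSM lies outside the interval of Mef2d, though the difference between the 2 genes was not tested. In the GENCODE M21 annotation 8.87% of the exon bases of Mef2d and 2.06% of those of Mef2a lie within exons of other genes, and the strand setting of the counting is not given in the sources used here. The other 7 genes have no such overlap.

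**Figure D3:**
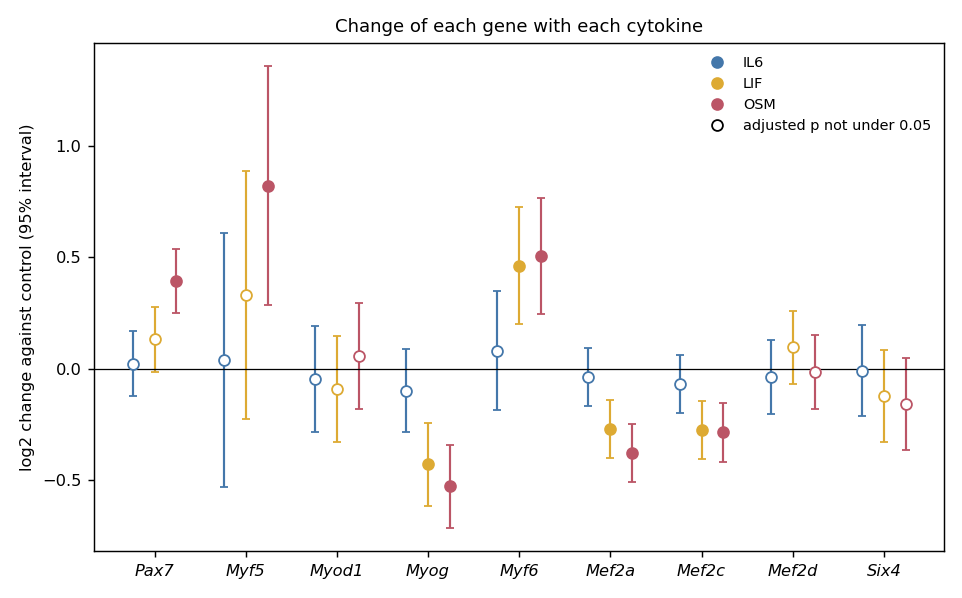
Log2 change of the 9 genes with IL6, LIF and OSM against control, with 95% intervals from the edgeR fit and filled points where the adjusted p was under 0.05. Filled points are OSM for Pax7 and Myf5, and both LIF and OSM for Myog, Myf6, Mef2a and Mef2c, and no IL6 point is filled.

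For IL6 against control all 9 intervals included 0, and the largest shift in either direction was in Myog, at −0.10 (SE 0.086, 95% interval −0.28 to 0.09, adjusted p 0.950). For Mef2a the interval was −0.17 to 0.09 and for Pax7 −0.12 to 0.17, while for the sparse Myf5 it was −0.53 to 0.61. Only for Mef2c did the 2 IL6 libraries both lie below the 2 control libraries (log2 change −0.07, SE 0.061, adjusted p 0.950), and the margin there was under 1 CPM. The share of all genes without such overlap was not computed, so nothing is read from this separation. The DESeq2 Wald test also called 0 of the 9.

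The cytokines were then compared directly at the same dose and time. Between OSM and LIF, 1 of the 9 genes was called, Pax7, against 8.04% of all genes. Pax7 was higher with OSM by 0.26 on the log2 scale (SE 0.066, adjusted p 0.0263), or 19.9%. This call was lost without LIF replicate 1 (adjusted p 0.255) or 2 (0.154) and without OSM replicate 1 (0.276) or 2 (0.0684), so it needs all 4 libraries. For Myog the difference was −0.10 (95% interval −0.28 to 0.09, adjusted p 0.596), for Mef2a −0.11 (−0.24 to 0.02, adjusted p 0.355), for Mef2c −0.01 (−0.14 to 0.12, adjusted p 0.948) and for Myf6 0.04 (−0.21 to 0.30, adjusted p 0.894). The difference in Myf5, 0.49, had an interval of −0.03 to 1.01 (adjusted p 0.274). These intervals do not show that the 2 cytokines act alike on any of the genes.

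OSM differed from IL6 for the same 6 genes and in the same directions as from control, against 15.5% of all genes. The differences were 0.37 for Pax7 (SE 0.066, adjusted p 0.00170), −0.34 for Mef2a (SE 0.060, adjusted p 0.00148) and −0.43 for Myog (SE 0.086, adjusted p 0.00401). Those of Myf5 (0.78, adjusted p 0.0482), Myf6 (0.43, adjusted p 0.0282) and Mef2c (−0.22, adjusted p 0.0267) passed more narrowly. Of the 14 other settings, Myf5 was called in 5, Myf6 in 7 and Mef2c in 8. With the DESeq2 Wald test the calls of Myf5 (adjusted p 0.126) and Myf6 (0.0626) were lost, and with only the OSM and IL6 libraries in the fit those of Myf5, Myf6 and Mef2c. Leaving out IL6 replicate 1 lost Myf5 (adjusted p 0.131) and Myf6 (0.0880) and brought in Six4 (0.0298), and leaving out IL6 replicate 2 lost Myf5 (0.0692) and Mef2c (0.106). Without LIF replicate 1 or 2, or without OSM replicate 1, Myf5, Myf6 and Mef2c were all lost, and without OSM replicate 2 Myog was lost too (adjusted p 0.0790). Without robust estimation Myf5 alone was lost (adjusted p 0.0508).

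LIF against IL6 gave 0 called genes of the 9 with edgeR, against 2.78% of all genes. At an unadjusted p under 0.05 there were 4, Myog, Mef2a, Mef2c and Myf6. Their differences were −0.33 for Myog (SE 0.086, adjusted p 0.0630), −0.23 for Mef2a (SE 0.060, adjusted p 0.0580), −0.21 for Mef2c (SE 0.061, adjusted p 0.0999) and 0.38 for Myf6 (SE 0.12, adjusted p 0.123). In each of these 4 the LIF libraries did not overlap the IL6 libraries. The same held for Pax7 and Myf5, whose unadjusted p in edgeR's test was 0.128 and 0.277. The shares of all genes at that unadjusted p or without overlap were not computed. The DESeq2 Wald test called 3 of them (Myog, Mef2a and Mef2c, with adjusted p of 0.00908, 0.0250 and 0.0497), so this comparison lies at the threshold. Leaving out control replicate 1 or 2, which are in neither group compared, gave 2 calls, Myog and Mef2a, and leaving out IL6 replicate 1 gave 1, Mef2c.

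The genes that act with these factors were read from 4 lists, written from general knowledge. Of 15 upstream genes (Pax3, Eya1 and others that act before or beside the myogenic factors) 12 were tested, and with OSM, where 21.4% of all genes were called, 1 of them rose. This was Six5, from 6.79 ± 0.00765 to 10.02 ± 0.582 CPM (log2 change 0.56, SE 0.14, adjusted p 0.00934). With LIF edgeR called 0 of the 12, beside 7.66% of all genes. At an unadjusted p under 0.05 there was 1 with LIF, and that share over all genes was not computed. The median log2 change of the list was 0.09 with OSM.

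Of 20 bHLH partners and inhibitors 19 were tested, and with OSM 4 rose and 3 fell, beside 21.4% of all genes called (1682 higher and 1653 lower). With LIF 1 of the 19 rose, beside 7.66% of all genes. Id2, whose product binds E proteins and keeps them from the myogenic factors, rose from 36.7 ± 4.04 to 73.9 ± 8.41 CPM (log2 change 1.01, SE 0.13, adjusted p 0.000373). The single call of the list in LIF libraries was again Id2, at 0.55 (SE 0.13, adjusted p 0.0314), and for IL6 the value was 0.37 (SE 0.13, unadjusted p 0.0205, adjusted p 0.943). Of the other inhibitors of its kind, Id1 (−0.23, adjusted p 0.319) and Id3 (0.26, adjusted p 0.240) did not pass with OSM. Id4, also listed, was not among the genes called. Of the 3 genes that encode E proteins themselves, a pair fell with OSM, Tcf3 by 0.29 on the log2 scale (SE 0.069, adjusted p 0.00900) and Tcf12 by 0.27 (SE 0.062, adjusted p 0.00721). Tcf4 stood at a change of 0.07 (SE 0.056, adjusted p 0.405). Hey1, a Notch-responsive repressor, rose by 0.46 (SE 0.12, adjusted p 0.0127). The other 3 called were Snai1 and Bhlhe40, higher, and Snai2, lower, named here because they complete the count. The list's median was 0.03 with OSM and −0.03 with LIF.

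All 21 MEF2 cofactors and regulators were tested, and with OSM 3 rose and 2 fell, a share near the 21.4% of all genes called. With LIF edgeR called 0 of the 21, beside 7.66% of all genes. At an unadjusted p under 0.05 there were 4 with LIF, and that share over all genes was not computed. The class IIa histone deacetylases, which bind MEF2 proteins and repress their targets, went both ways. Hdac5 rose from 144 ± 5.74 to 178 ± 14.6 CPM (log2 change 0.30, SE 0.070, adjusted p 0.00720), while Hdac4 changed by −0.23 (SE 0.073, adjusted p 0.0360) and Hdac7 by −0.23 (SE 0.068, adjusted p 0.0270). Hdac9 did not pass, at 0.28 (SE 0.26, adjusted p 0.509), with control libraries at 16.3 ± 7.17 CPM. The acetyltransferase gene Kat2b rose by 0.29 (SE 0.081, adjusted p 0.0203) and Mrtfa, which encodes a coactivator of SRF, by 0.29 (SE 0.086, adjusted p 0.0262). Hdac4 was also lower with OSM than with LIF, by −0.28 (SE 0.073, adjusted p 0.0287). The list's median was 0.11 with OSM and 0.04 with LIF.

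Of 33 muscle differentiation genes, which are targets of the myogenic factors and MEF2 or their companions, 3 rose and 8 fell with OSM, and 3 rose and 5 fell with LIF. Over all genes tested 21.4% were called with OSM (1682 higher and 1653 lower) and 7.66% with LIF (655 higher and 540 lower). The light chain gene Myl4 changed by −0.41 with OSM (SE 0.081, adjusted p 0.00276), Mylpf by −0.31 (SE 0.066, adjusted p 0.00452) and the cell cycle inhibitor gene Cdkn1c by −0.73 (SE 0.14, adjusted p 0.00312). Desmin, the intermediate filament gene Des, went the other way, from 1017 ± 25.9 CPM in control to 1251 ± 14.2 with OSM (log2 change 0.30, SE 0.063, adjusted p 0.00411) and 1490 ± 66.4 with LIF (0.55, SE 0.063, adjusted p 0.000181). Mybph, a thick filament protein gene, changed by −0.41 with LIF (SE 0.071, adjusted p 0.00329). The fusion genes Mymk (−0.22 with OSM, SE 0.073, adjusted p 0.0512) and Mymx (−0.06, SE 0.075, adjusted p 0.599) did not pass. The list's median was −0.04 with OSM, −0.04 with LIF and −0.07 with IL6. With IL6 edgeR called 0 of the 33, and 7 had an unadjusted p under 0.05, beside 5.10% of all genes.

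Markers of cell states moved with these groups. For the lists of this paragraph, the share of all genes called was 21.4% with OSM (1682 higher and 1653 lower). With LIF it was 7.66% (655 higher and 540 lower). Of 10 markers of cycling cells, 9 were called lower with OSM and 7 with LIF, among them Mki67, by −2.02 and −0.57 on the log2 scale. With IL6 edgeR called 0, and 0 had an unadjusted p under 0.05, beside 5.10% of all genes at that cut. The summed level of the cycling markers was 907 to 1054 CPM in control, 870 to 926 with IL6, 680 to 723 with LIF and 295 to 339 with OSM. No marker of the list was at 0 in any library. Satellite cell and myoblast markers did not move as one: of 11 listed 9 were tested, Sdc4 and Itga7 rose and Cd34 and Megf10 fell with OSM, and Calcr was at 0 throughout. Their summed level, most of it from the 2 that rose, Itga7 (19022 to 25321 counts) and Sdc4 (9324 to 15513), was 1473 to 1491 CPM in control, 1493 to 1542 with IL6, 1668 to 1701 with LIF and 1719 to 1758 with OSM, while the median log2 change of the 9 tested was 0.02 with OSM. The fibroblast list, 6 of 10 markers tested, summed to 1691 to 1768 CPM in control and 1561 to 1759 with IL6. With LIF the sum was 2064 to 2123 CPM and with OSM 2156 to 2268. Most of this sum came from Col3a1 (38820 to 61502 counts). With OSM, Pdgfra, Col3a1 and Ly6a were called higher, while Col1a1, Dcn and Cd248 were tested and not called. Lum and Tcf21 were at 0 throughout. The 9 myotube markers gave 23997 to 24890 CPM in control, 20901 to 23323 with IL6, 22063 to 23313 with LIF and 21433 to 21500 with OSM, and Myh8 alone was called, lower with OSM and with LIF. At an unadjusted p under 0.05 there were 7 of the 9 with OSM, 3 with LIF and 3 with IL6. The share of all genes at that cut was 5.10% with IL6 and was not computed with OSM or LIF. The myotube list's median log2 change was −0.20 with OSM, −0.12 with LIF and −0.13 with IL6. The part of these shifts in the changes of Pax7, Myf5, Myf6, Myog and the MEF2 genes was not tested.

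**Figure D4:**
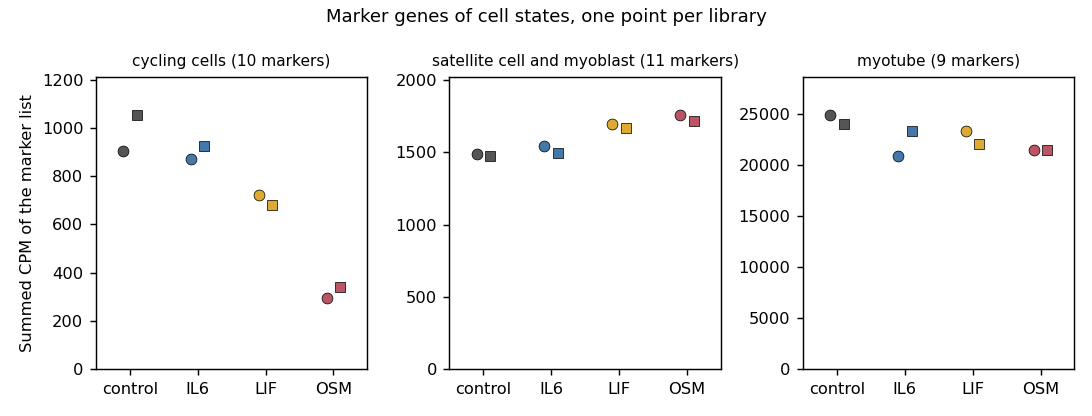
Summed CPM of the cycling cell, satellite cell and myoblast, and myotube marker lists in each library, on linear axes from 0, with circles for replicate 1 and squares for replicate 2. The cycling list is lowest with OSM and next lowest with LIF. The sum of the satellite cell and myoblast list, carried by Itga7 and Sdc4, is highest with OSM. The myotube list of all IL6, LIF and OSM libraries lies below both control libraries, and an IL6 library is lowest.

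The remaining marker lists were low. Summed levels across the 8 libraries were at most 6.44 CPM for 7 endothelial markers, 15.4 for 7 macrophage markers, 28.8 for 6 mural and smooth muscle markers, 3.79 for 5 Schwann cell markers and 1.61 for 5 adipocyte markers. The macrophage sum was 7.96 to 9.30 CPM in control, 10.3 to 13.9 with IL6, 13.7 to 14.4 with LIF and 14.0 to 15.4 with OSM, almost all of it from Mrc1 and Cd68, while Adgre1 and C1qa had at most 1 count.

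Genes whose log2 CPM ran most like each of the 9 over the 8 libraries were listed among 10868 others, or 10869 for Myf5, with a mean of at least 100 counts. For Myog these were Rap1gap2 (Pearson r 0.994), Tbl1x (0.991) and Srxn1 (0.985). For Mef2c they were Cotl1 (0.995), Prag1 (0.992) and Commd10 (0.985), and for Mef2a Hmgb3 (0.985), Slc4a7 (0.978) and Hprt (0.976). For Pax7 they were Furin (0.995), Slc25a51 (0.994) and Tmed3 (0.994), for Myf6 Adam10 (0.993), Tshz3 (0.983) and Cpd (0.982), and for Myf5 Maged1 (0.989), Sharpin (0.985) and Hdac5 (0.981). For the 3 genes not called with any cytokine the closest were Frmd4a for Myod1 (0.984), with Musk and Best3 next, Flot2 for Mef2d (0.972), with Zfp398 and Smim26 next, and Pkia for Six4 (0.979), with Josd1 and Wasl next. The 8 points come from 4 groups of 2 libraries and share their scaling, and 5.03% of the candidates exceeded an r of 0.9 with Pax7 and 1.90% with Myog.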

How the data were processed

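RNA-seq gene counts of 8 libraries were used, 2 in each of 4 groups set by the sample labels. The authors' files hold raw read counts per Ensembl gene, 1 file per library, not pooled. Per the submitters' processing notes the tools include STAR 2.7.3a and HTSeq 0.11.1 and the build is GRCm39 (mm39). The library kit is stranded, per the labels' protocols; the counting strand setting and annotation release are not given in the sources used here. Reads outside genes, 11.7% to 12.7% of those recorded, were left out of library sizes and tests.

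Symbols came from a reference table of Ensembl identifiers, which named all but 1554 of 53647; exon lengths are from GENCODE M21 (GRCm38) and promoters from RefSeq (GRCm38.p6), and no coordinate was moved between builds. The test was edgeR 4.0.16 in R 4.3.3: filterByExpr at a minimum count of 10, TMM scaling, a robust quasi-likelihood fit of 4 group means to all 8 libraries, 6 contrasts, and Benjamini-Hochberg adjustment over the 15603 genes tested, called under 0.05. CPM are TMM-scaled, given per library or as mean ± SD. Standard errors were worked back from the log2 change and the F statistic of its test. The 95% intervals are these standard errors times a t quantile. Counting error at 39 counts, the lowest value among the 9 genes, is 16.0% and covers counting only, as PCR copies were not told apart by molecular identifiers. The script was tested on simulated counts. Alternatives were size factors of DESeq2 within edgeR, the DESeq2 1.42.0 Wald test, no filter, 2-group fits, a replicate block, no robust estimation and leaving out each library. Named genes are the 9 genes, from each list up to 4 called with OSM and up to 2 with LIF by lowest adjusted p, 12 fixed genes (1 is not reported here), and the 3 genes closest to each of the 9 by Pearson r of log2 CPM (prior count 2). The genes and lists were chosen with earlier results of these data known.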

Additional observations from a re-analysis of the deposited data

How the results depend on the processing

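Of 756 values from the 54 gene-by-comparison results under 14 other settings, 675 kept direction and side of the threshold. No called result changed direction. The counts of called genes among the 9 moved by over 1.5 times for LIF against IL6, from 0 to 3 with the DESeq2 Wald test, 2 with no filter on low counts, 1 with only the 2 groups in the fit and 2 with the replicate block, and for OSM against IL6 from 6 to 3 with only the 2 groups. Leaving out 1 library at a time gave 4 to 6 calls for OSM against control, 0 to 4 for LIF against control, 0 for IL6 against control, 0 to 1 for OSM against LIF, 2 to 6 for OSM against IL6 and 0 to 2 for LIF against IL6; such a fit has fewer samples. Replicate numbers pair nothing by the labels. Deviations of same-numbered libraries correlated at 0.00999 to 0.305 across 12332 genes, all positive and below 0.1 in 2 of 6 pairs of groups. In every group replicate 1 was the higher for Myod1 and the lower for Six4. Among the 9 genes the replicate block changed the count of calls only for LIF against IL6. Over all genes it raised the calls to 3966 for OSM against control, 1670 for LIF against control and 3000 for OSM against IL6. With single libraries left out, 17 results that were not called turned in sign; the cause was not tested. The log2 ranges over left-out libraries were, against control with OSM, −0.0811 to 0.221 for Myod1 and −0.101 to 0.0840 for Mef2d, and with LIF −0.233 to 0.0727 for Myod1. With IL6 they were −0.00547 to 0.0497 for Pax7, −0.151 to 0.262 for Myf5, −0.193 to 0.116 for Myod1, −0.242 to 0.0621 for Myog, −0.144 to 0.0608 for Mef2d and −0.175 to 0.140 for Six4. Between OSM and LIF they were −0.0565 to 0.144 for Myf6, −0.0335 to 0.0117 for Mef2c and −0.0961 to 0.0301 for Six4, between OSM and IL6 −0.0209 to 0.250 for Myod1, −0.0698 to 0.129 for Mef2d and −0.291 to 0.0187 for Six4, and between LIF and IL6 −0.169 to 0.0981 for Myod1 and −0.259 to 0.0541 for Six4. Counts over all genes tested moved too: leaving out 1 library gave 1622 to 4067 for OSM against control (3335 with all), 316 to 1688 for LIF (1195), 0 to 221 for IL6 (0), 437 to 1764 for OSM against LIF (1255), 1105 to 2713 for OSM against IL6 (2426) and 82 to 739 for LIF against IL6 (434). For IL6 against control, no filter gave 97, the DESeq2 Wald test 16 and the replicate block 9; for LIF against IL6 no filter gave 985 and the block 826; OSM against LIF alone gave 2928. Depth limits Myf5 most.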
